A study of Caenorhabditis elegans with 2 samples.

Results

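A set of 9 genes of the contractile apparatus of body wall muscle, out of the 19985 protein-coding genes of the annotation, was examined in a map of UNC-30 on chromatin: unc-60, unc-45, unc-54, myo-3, unc-15, unc-22, unc-89, act-4 and lev-11. They were chosen by the rank of candidate regions near them, with unc-60 and unc-45 picked out as the genes with higher-ranked regions and the other 7 as the background of the tissue. The ranks and signal values below are therefore a description and carry no test. The map comes from chromatin immunoprecipitation and sequencing of whole L1 larvae of Caenorhabditis elegans, of pooled male and female animals, in 2 libraries that the labels call biological replicates 1 and 2. Both libraries are from strain OP395, with the allele unc-119(tm4063) on chromosome III and the integrated transgene wgIs395, from which UNC-30 is made with GFP and FLAG fused C-terminally. The labels do not say which cells express the transgene, there is only 1 group, and its age beyond the larval stage is unknown.

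UNC-30 belongs to the Pitx homeodomain proteins and sets the fate of the D-type motor neurons, which are GABAergic. They release GABA onto body wall muscle and relax it. The muscle itself is obliquely striated: actin thin filaments are anchored at dense bodies, myosin thick filaments are centred on M-lines, and sliding between them shortens the cell. The genes below code for the filaments and for proteins that assemble or turn them over. In a map made from whole larvae, the chromatin of muscle cells and of the few neurons that make UNC-30 is mixed, so no region can be assigned to a cell type.

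For each gene, candidate regions were counted whose summit lay between 5000 bp upstream of the annotated 5′ end and the 3′ end. The lists hold 30000 regions each, peaks and background together, ranked here by the authors' signal value from 1 for the highest. Signal values serve to rank regions within a list and have a scale that is not given in the sources used here, so they are not compared between lists. In the list made from both replicates together, called the pooled list, the signal ran from 10.7 to 113 with a median of 14.2. The read depth of the libraries is unknown.

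Of the 9 genes, 3 had a region among the 1000 highest of the pooled list: unc-60, act-4 and unc-45. The share over all protein-coding genes was 7.98%, but the ranks chose the genes, so nothing is read from this count. The 201 bp around the summits at unc-60 and unc-45 are shown because these are the genes the set was built around. They are in ce11 (WBcel235), plus strand, read from the RefSeq genome sequence. Capitals mark TAAT on either strand, the core of homeodomain sites, and in the first sequence its extension GGATTA, which is TAATCC on the minus strand, the form preferred by bicoid-type homeodomains such as that of UNC-30.
unc-60, chrV:1471720-1471920: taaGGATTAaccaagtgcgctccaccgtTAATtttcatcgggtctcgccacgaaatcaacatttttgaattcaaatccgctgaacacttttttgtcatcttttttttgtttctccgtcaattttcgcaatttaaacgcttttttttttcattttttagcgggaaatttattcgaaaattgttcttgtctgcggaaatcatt
unc-45, chrIII:489853-490053: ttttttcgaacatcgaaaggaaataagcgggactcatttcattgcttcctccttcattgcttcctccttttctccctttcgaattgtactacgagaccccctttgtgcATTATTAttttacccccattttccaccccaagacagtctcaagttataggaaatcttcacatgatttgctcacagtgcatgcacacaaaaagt

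Among the 9 genes, the strongest region was that of unc-60, which encodes the actin depolymerizing factor/cofilin proteins that sever and recycle actin filaments. unc-60 (WBGene00006794, chrV:1475086-1479576, plus strand) had a pooled region at chrV:1471642-1471997 with a signal of 50 and rank 59. The same locus ranked 101 in replicate 1 with a signal of 28.2 and 93 in replicate 2 with a signal of 23.5, so both libraries placed it near the top of their own list. It is also the only region of the set among the 125 peaks that passed the authors' reproducibility threshold, a status that 1.18% of all protein-coding genes have for a peak in the same window. Its −log10 q was 1.59 in the pooled list, above the 1.30 that stands for a q of 0.05, 1.6 in replicate 1 and 0.428 in replicate 2. Of all protein-coding genes, 0.51% had a better-ranked region in their window.

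The unc-60 region is distal to the gene. Its pooled summit lay 3266 bp upstream of the 5′ end, in intergenic sequence, 715 bp beyond the end of the neighbouring gene gid-8, which runs in the same direction. unc-60 shares this 5′ end with the annotated gene F53E2.2. The 2 libraries did not place the summit at the same base: it was 3170 bp upstream in replicate 1 and 3322 bp upstream in replicate 2. The TAATCC core at chrV:1471723-1471728 lay 95 bp from the pooled summit, at the edge of the window printed above. Replicate 1's own window of the same width, moved 96 bp towards the gene, does not hold it, while replicate 2's does. The other 3 pooled regions of unc-60 ranked 7802, 22826 and 24075, with signals of 17.1, 12.2 and 11.9. The first of them, 4588 bp upstream, lies in an intron of gid-8. The second overlaps the rank 59 region and had no summit within 100 bp in either replicate's list. Replicate 1's summit, 3170 bp upstream, lies inside both of these overlapping pooled regions.

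act-4, an actin gene expressed in body wall muscle, had the second-ranked region of the set, above that of unc-45. This goes against the description of the set, which counted act-4 with the background. The region had a pooled signal of 27.1 and rank 662, with its summit 226 bp downstream of the 5′ end, in an intron of act-4 (WBGene00000066, chrX:4960621-4964413, plus strand). It ranked 1519 in replicate 1 with a signal of 15.1 and 157 in replicate 2 with a signal of 21.3. It did not pass the authors' threshold, and its pooled −log10 q was 0.0991. Actin genes are close copies of each other. All 31-mers of this intronic region occur once in the genome, and an effect of the other copies on its signal was not tested. A second act-4 region, 1962 bp upstream, intergenic and only 1241 bp from the 5′ end of M03F4.4, had a signal of 24.1 and rank 1328, and it too was found in both libraries, at ranks 2928 and 9739 in replicates 1 and 2. The third, 4639 bp upstream, ranked 8193 and was matched in replicate 1 only, at rank 4849. The 5.44% of protein-coding genes with a better-ranked region than act-4 compare with 6.7% for unc-45.

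unc-45 encodes the UCS-domain chaperone that folds myosin heads and works with HSP-90. Its highest pooled region, at chrIII:489775-490130, had a signal of 26.1, rank 838 and a −log10 q of 0.0776. The summit lay 1594 bp upstream of unc-45 (WBGene00006781, chrIII:491547-502625, plus strand) and closer to another gene: 444 bp beyond the 3′ end of F30H5.5 and 1189 bp from its 5′ end. The libraries disagreed on it. It ranked 671 in replicate 1, with a signal of 17.7, but 29750 in replicate 2, with a signal of 6.36 where that list ends at 6.33. Replicate 2 instead had its highest unc-45 region closer to the gene, 830 bp upstream, at rank 709 with a signal of 17.0. The pooled region there, 804 bp upstream, ranked 5592 with a signal of 18.5 and had no counterpart in replicate 1, and 76.7% of its 31-mers occur once in the genome. The remaining pooled regions, in introns 598 and 8165 bp downstream of the 5′ end, ranked 14080 and 14498 and were matched in replicate 2 only.

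**Figure D1:**
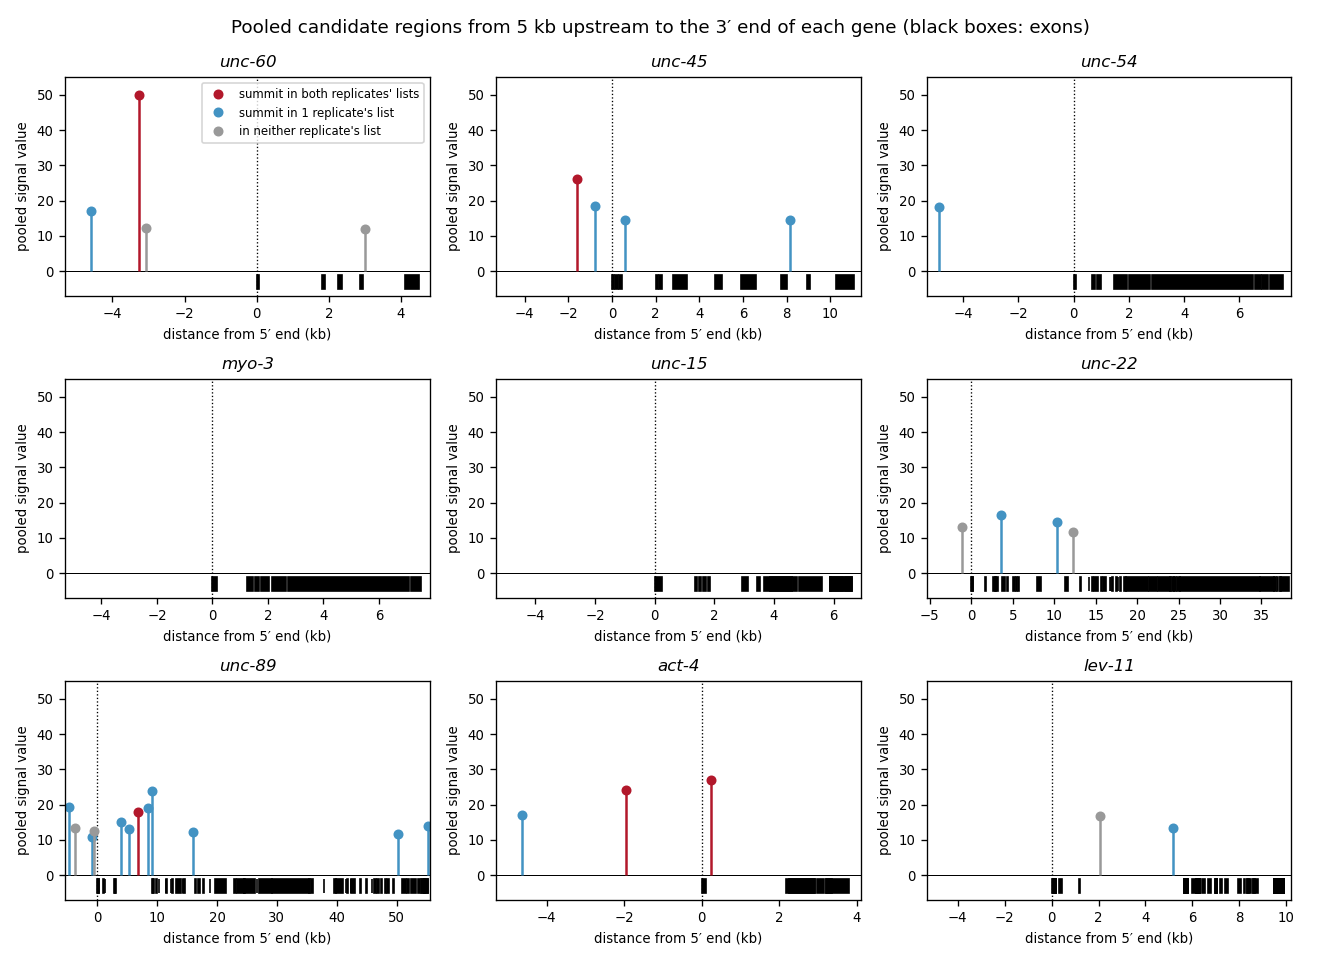
Signal value of each pooled candidate region (vertical axis) against the distance of its summit from the annotated 5′ end in kb (horizontal axis, transcription to the right), 1 panel per gene, with exons as black boxes. Colour tells whether a summit within 100 bp is in both replicates' lists, in 1 or in neither; the unc-60 region at a signal of 50 stands above all others, and myo-3 and unc-15 have none.

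The myosin and paramyosin genes that build the thick filament held few regions. unc-54 encodes myosin heavy chain B, the major body wall myosin, and myo-3 encodes heavy chain A, which forms the middle of the thick filament. unc-15 encodes paramyosin, its core. myo-3 (WBGene00003515, chrV:12226817-12234343, minus strand) and unc-15 (WBGene00006754, chrI:7376604-7383197, minus strand) had no pooled region in their windows. Over all protein-coding genes 16.9% had none, and among the 886 genes with windows of 11 to 13 kb, the length of these windows, 8.01% had none. unc-54 (WBGene00006789, chrI:14855901-14863482, minus strand) had 1, with a signal of 18.3 and rank 5797, 4876 bp upstream and inside an intron of F11C3.1, only 434 bp from that gene's own 5′ end.

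The separate lists added weaker or unmatched regions at these genes. myo-3 had 1 region in replicate 2, at rank 12515, and none in replicate 1. unc-15 had 4 in replicate 1, the highest at rank 10132, and none in replicate 2. unc-54 stands apart: replicate 2 had a region 3391 bp upstream, in intergenic sequence, at rank 134 with a signal of 21.9, but neither the pooled list nor, within the unc-54 window, replicate 1 had a region of comparable rank. The highest unc-54 region of replicate 1 ranked 12809.

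The genes of 2 giant proteins of the sarcomere held mostly low-ranked regions. unc-89 encodes the obscurin-like protein of the M-line, and unc-22 encodes twitchin, a titin-like kinase of the thick filament. unc-89 (WBGene00006820, chrI:4035702-4090885, plus strand) had 12 pooled regions in a window of 60.2 kb. Its highest, in a coding exon 9178 bp downstream of the 5′ end and 2256 bp from the nearest annotated transcript start of the gene, had a signal of 23.7 and rank 1482. That region ranked 180 in replicate 2 and was not found in replicate 1. The reverse held 4681 bp upstream, in an intron of unc-73, where the pooled rank was 4589: replicate 1 ranked it 387 and replicate 2 did not list it. Of the 12, only the region 6895 bp downstream was matched in both libraries, at ranks 16496 and 16321 in replicates 1 and 2. unc-22 (WBGene00006759, chrIV:11972697-12011007, minus strand) had 4 regions in 43.3 kb, with signals from 11.5 to 16.5 and the best rank 8891. None of the 4 had a summit within 100 bp in both replicates' lists.

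lev-11 encodes tropomyosin, which runs along the actin filament and, with troponin, gates myosin binding. lev-11 (WBGene00002978, chrI:14621169-14631094, minus strand) had 2 pooled regions, both in its own introns. Their signals were 16.8 and 13.4 and their ranks 8370 and 17918. The first, 2072 bp downstream of the 5′ end, had no summit within 100 bp in either replicate's list. It overlaps a replicate 2 region of rank 12463, whose summit is 1809 bp downstream. The second lay 487 bp from one of the 11 annotated transcript starts of lev-11 and was matched in replicate 2 only, at rank 14301.

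**Figure D2:**
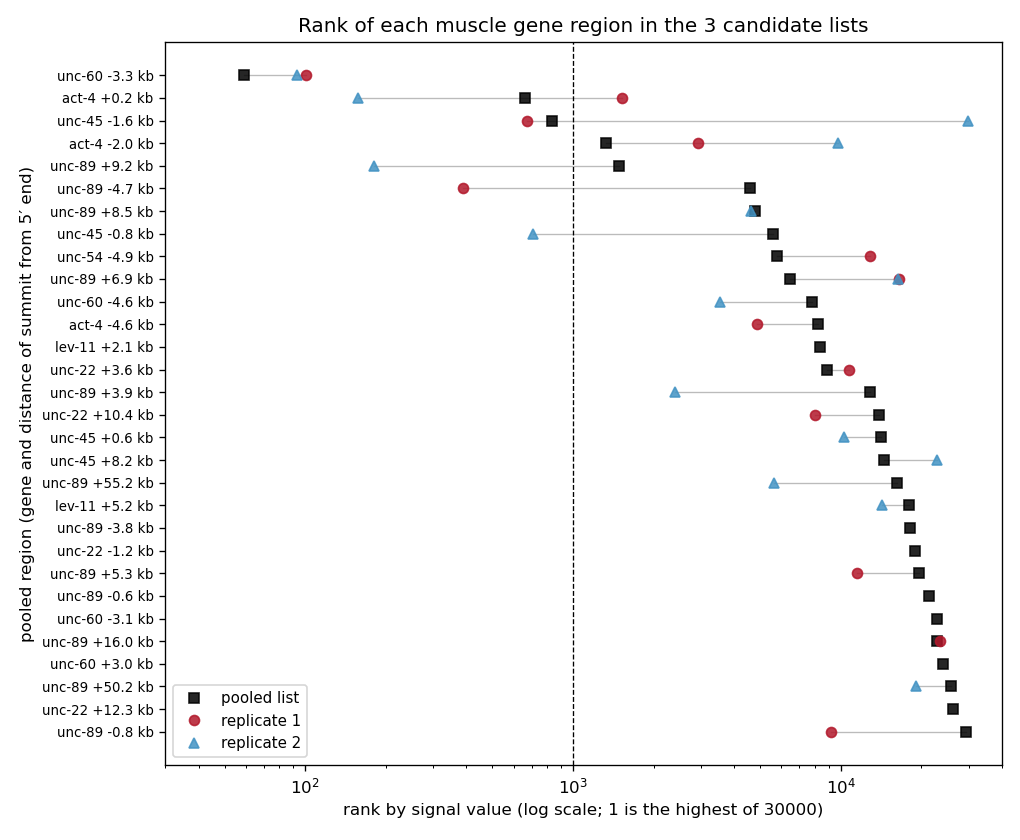
Rank by signal value (horizontal axis, log scale) of the 30 pooled regions near the muscle genes, from the highest at the top, in the pooled list (squares), replicate 1 (circles) and replicate 2 (triangles); grey lines join the ranks of a region, a missing symbol means no summit within 100 bp, and the dashed line is rank 1000. The unc-60 region at 3.3 kb upstream has 3 symbols close together, whereas the unc-45 region at 1.6 kb upstream runs from rank 671 to 29750.

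Counted over the set, 7 of the 9 genes had a pooled region, against 83.1% of all protein-coding genes. A region in the top 1000 was present for 3 of the 9, against 7.98% of all genes; since the ranks chose the genes, nothing is read from this count. Among all genes, long windows reach the top 1000 more often, 12.5% of those with windows of 11 to 13 kb and 26.7% of the 30 with windows of 40 kb and over. With each replicate's own list, 3 genes had a top 1000 region in replicate 1 (unc-60, unc-45 and unc-89), against 7.95% of all genes. In replicate 2 there were 5 (unc-60, act-4, unc-45, unc-54 and unc-89), against 7.9%. A pooled region matched in both replicates was present at 4 of the 9 genes (unc-60, act-4, unc-45 and unc-89), against 27.5% of all genes. These shares are not matched for length: the median window was 12.6 kb for the 9 genes and 7.0 kb for all genes.

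**Figure D3:**
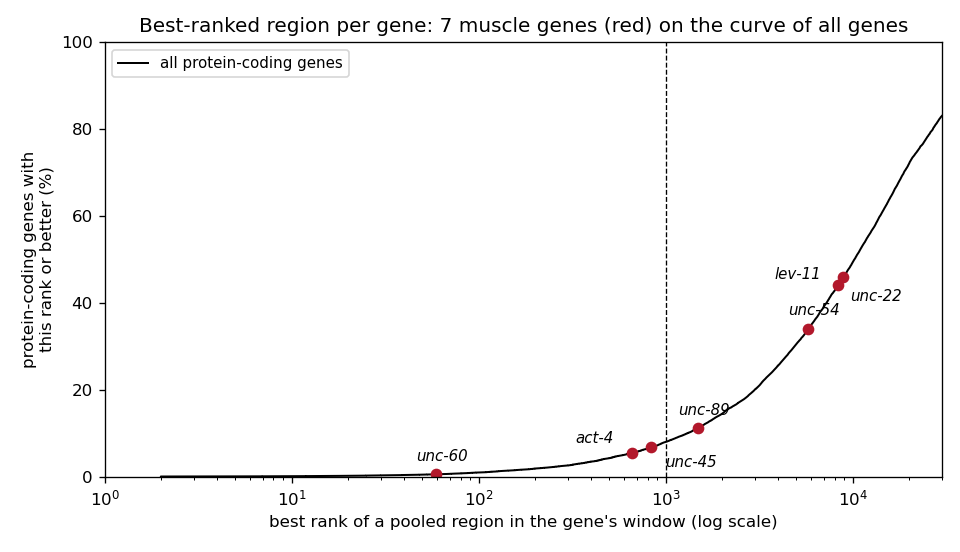
Best rank of a pooled region in a gene's window (horizontal axis, log scale) against the percentage of the 19985 protein-coding genes with that rank or better (black curve); red points are the 7 muscle genes that have a region and the dashed line is rank 1000. unc-60, at rank 59, lies at the far left, act-4, unc-45 and unc-89 between ranks 662 and 1482, and unc-54, lev-11 and unc-22 on the steep part of the curve.

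Regions were sparser along these 9 chosen genes than along all protein-coding genes, which was not tested. The low density was not shared by all muscle genes: 58 further ones, described below, together had 0.267 pooled regions per kb. Roles differed, members included, from 0 per kb for the 2 pharyngeal myosin genes to 0.392 for the 3 muscle transcription factor genes. Thick filament and M-line genes had 0.183 per kb, calcium release and uptake genes 0.182, and thin filament genes 0.311. The 9 windows held 30 pooled regions in 189.5 kb, or 0.158 per kb, against 0.291 per kb over all protein-coding windows. The gap lay within the genes: gene bodies held 17 regions, or 0.118 per kb, against 0.271 per kb in all gene bodies, and the 5000 bp upstream held 13, or 0.289 per kb, against 0.304 per kb. The separate lists gave similar figures, 0.19 per kb in replicate 1 and 0.195 in replicate 2, against 0.294 per kb over all genes in both. unc-60 had 0.421 per kb and act-4 0.341, above the median of all genes of 0.278. unc-45 (0.249), unc-89 (0.199), lev-11 (0.134), unc-22 (0.0924) and unc-54 (0.0795) lay below it. The 30 genes with windows of 40 kb and over had a median of 16.5 regions and 0.328 per kb, so unc-89 with 12 and unc-22 with 4 lie below the median of genes of their length.

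**Figure D4:**
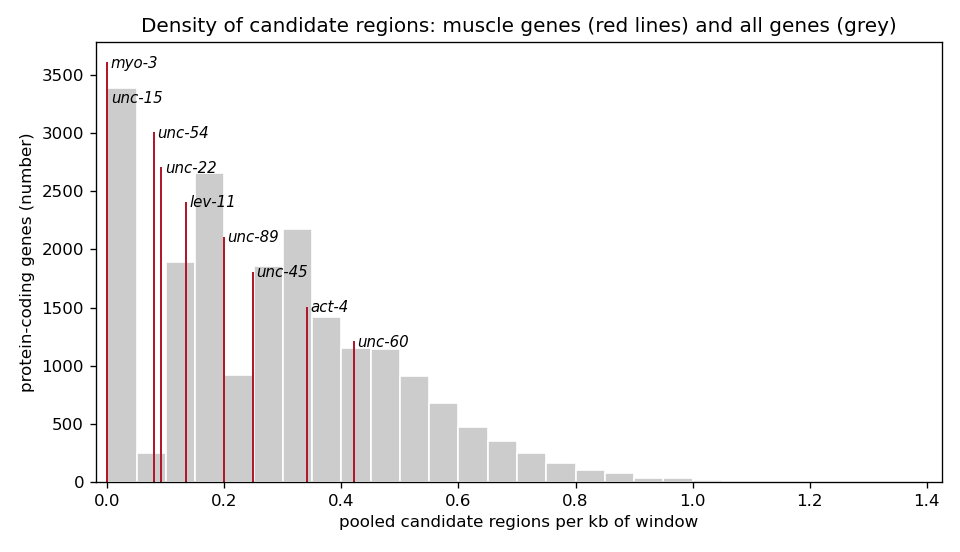
Number of protein-coding genes (vertical axis) by pooled candidate regions per kb of window (horizontal axis), as grey bars; red lines mark the muscle genes, and the height of a line has no meaning. unc-60 and act-4 lie to the right of the median of 0.278 per kb, the other 7 genes to the left.

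By location, most of the 30 regions were intronic, in windows of which gene bodies make up 144.5 of 189.5 kb. The pooled list covers the whole genome, so its shares are given for orientation and not as a like comparison. Introns held 18 (60%), against 38.2% of all pooled regions; 15 of these were introns of the muscle genes and 3 those of neighbours. Intergenic sequence held 10 (33.3%, against 43.0%), coding exons 1 (3.33%, against 12.9%) and 3′ UTRs 1 (3.33%, against 4.19%). The muscle gene's own 5′ end was the nearest of all protein-coding genes for 18 of the 30. Summits in both replicates' lists were found for 5 regions (16.7%), against 14.4% of the pooled list. A further 8 were in replicate 1 only, 10 in replicate 2 only and 7 in neither. Agreement between the libraries depends on rank: of all pooled regions ranked 1 to 125, 81.6% were in both lists, and of those ranked 126 to 1000 64.8%, but only 8.14% below rank 5000. Apart from unc-60, no region of these genes had a pooled −log10 q above 0.0991.

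In the pooled list, homeodomain cores were no more frequent in these regions than in others. Of the 30 windows of 201 bp, TAATCC on either strand was in 1 (3.33%), that of unc-60, against 7.18% of all pooled windows. The shorter TAATC, which every TAATCC contains, was in 7 (23.3%), against 31.5% of pooled windows. These were 5 of unc-89, 1 of unc-60 and the act-4 region 1962 bp upstream. TAAT was in 27 (90%), against 90.1% of pooled windows. The libraries differed: TAATCC was in 5 of the 37 windows that replicate 2's own list places at these genes, against 6.86% of that whole list, and in 0 of 36 in replicate 1, against 7.07%. The 5 are 2 near unc-60, at ranks 93 and 6970, and 1 each near unc-45, unc-54 and lev-11, at ranks 4720, 5287 and 15906. A match of letters is a description and not a bound site. The median G+C content was 30.1%, against 31.8% of the pooled windows. All 31-mers occurred once in the genome for 24 regions (80.0%), against 84.2% of the pooled list.

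A few other genes with roles in muscle, among them a chaperone gene, had high-ranked regions. A wider list of 58 further genes was drawn up by role, and 51 of them (87.9%) had a pooled region, against the 83.1% of all protein-coding genes given above. A top 1000 region was present for 6 (10.3%), again beside 7.98%, and a thresholded peak for 2 (3.45%), beside 1.18%. hsp-90, the chaperone partner of UNC-45, had the highest (signal 61.8, rank 39), in an intron of hsp-90 but nearest the 5′ end of C47E8.4, at ranks 17 and 868 in replicates 1 and 2. cap-2, which encodes a subunit of the actin capping protein, had rank 61 (signal 49.6), 231 bp upstream, at rank 24 in replicate 1 and with no match in replicate 2. The other 4 were near unc-82, zyx-1, pfn-3 and pat-6. Coding exon regions lay in unc-82, a kinase of thick filament organization (rank 296, the only one of the 6 with TAATCC), and zyx-1, the zyxin of dense bodies (rank 485). Their summits were nearer the 5′ ends of valv-1 (1608 bp) and F42G4.5 (3607 bp). In replicates 1 and 2 the unc-82 region ranked 317 and 6301, and the zyx-1 region 634 and 4327. Regions in 3′ UTRs lay in the profilin gene pfn-3 (rank 802) and the parvin gene pat-6 (rank 913). The pfn-3 region ranked only 8221 and 13794 in replicates 1 and 2. The pat-6 region lay 237 bp from the 5′ end of pqbp-1.1 and had no summit within 100 bp in either replicate's list. By role, members included, the top 1000 held regions of 2 of 14 thick filament and M-line genes, 2 of 18 thin filament genes, 2 of 10 genes of actin turnover, 2 of 14 dense body genes and 2 of 4 genes of myosin folding, with unc-45 counted in the first and the last of these lists. It held none of the 2 pharyngeal myosin genes, the 3 genes of calcium release and uptake or the 3 muscle transcription factor genes. The share over all protein-coding genes was 7.98%. Since the role counts include unc-60, act-4 and unc-45, members of a set chosen by rank, nothing is read from them.

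The limit of 5000 bp upstream leaves regions close to it on both sides. Just inside lay those of unc-60 (4588 bp, rank 7802), act-4 (4639 bp, rank 8193), unc-89 (4681 bp, rank 4589) and unc-54 (4876 bp, rank 5797). Just outside lay regions of unc-15 (5331 bp, rank 28408) and lev-11 (5390 bp, rank 17382). None of these 6 is in the top 1000.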

How the data were processed

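The data are lists of regions from ChIP-seq of tagged UNC-30 in L1 larvae. Per the file lists deposited with the samples, the authors made a list of candidate regions (peaks and background) from each replicate's alignments and 1 further file, a pooled list from both replicates, and a shorter list of peaks that passed a threshold on the irreproducible discovery rate. The sources used here do not give the aligner, peak caller, control or threshold. The deposited lists hold a signal value per region and a −log10 q-value, as the narrowPeak layout defines them. The lists used carry no read counts, so no precision from depth can be given; no value here has a standard deviation, because the 2 replicates' signal values stand in lists of their own. The ce11 lists were used. The ce10 lists were not, since members cannot be placed without an annotation of that build.

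Genes came from Ensembl release 115 (WBcel235) and sequence from the RefSeq assembly of the same name; all regions lie within its chromosome lengths. Regions were ranked by signal, given to a gene by summit, and matched between lists when summits lay within 100 bp. Cores were searched on both strands within 100 bp of the summit. Uniqueness is the share of a region's 31-mers that occur once in the genome, on either strand. Assignment, matching and core search were tested on simulated data. No test was run: there is 1 group, and the members and lists were chosen with earlier results of these data known. All members are named with their highest region; regions in the top 1000, in both replicates or with TAATCC are described in full, and other muscle genes are named where they have a top 1000 region. Members' other regions, single replicates' regions and regions outside the windows that are named were chosen after their values were seen. Alternatives were other windows, assignment by overlap, each replicate's list alone, and other rank, matching and core settings. Python 3.11.15, numpy 2.4.6 and pandas 2.3.3 were used. The sequence of the highest act-4 region is not reported here.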

Additional observations from a re-analysis of the deposited data

How the results depend on the processing

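Of 38 recomputed values, 22 stayed close to the reported one and 16 did not. Counts were taken as close when within 1.5 times. The best ranks taken as close were all unchanged, and those from a single replicate's list were taken as moved. With an upstream window of 2000 bp the best unc-60 rank was 24075, since its region lies farther out; with 10000 bp the best unc-45 rank was 280. Leaving out a replicate gave best ranks of 93 to 101 for unc-60 and 671 to 709 for unc-45, 3 to 5 genes in the top 1000 and 0 to 5 regions with TAATCC. For unc-45 these ranks belong to different regions, 1594 bp upstream in replicate 1 and 830 bp upstream in replicate 2. With a rank limit of 500, 1 gene remained in place of 3. Regions in both replicates numbered 5, but 2 with summits within 50 bp, without that of unc-60, and 8 with summits within 200 bp. TAATCC was in 0 regions within 50 bp of the summit and in 4 within 200 bp; TAATC was in 7 and TAAT in 27. No paired analysis was possible because there is 1 group. Where replicates were left out, the single list took the place of the pooled one. Ranks rest on 2 libraries of unknown depth, without a test.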

Other observations

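Higher-ranked regions lay just beyond some of the windows; they were noticed after the values were seen. At unc-15, whose window is empty, a pooled region with a signal of 29.0 and rank 456 had its summit 175 bp beyond the 3′ end, in intergenic sequence, with 3 of its bases inside the window. It ranked 1346 in replicate 1 and was not in replicate 2's list. At lev-11 a region of rank 2574 lay 44 bp beyond the 3′ end, at ranks 18301 and 6593 in replicates 1 and 2. When any overlap with the window is counted, 8 genes have a region and 4 have one in the top 1000. The shares of all genes given above rest on summits and not on overlap, so nothing is read from these counts.

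Farther upstream, unc-45 had a region of rank 280 (signal 32.2) at 8564 bp, found at ranks 397 and 2788 in replicates 1 and 2, but its nearest 5′ end is that of F10C5.3, 885 bp away. myo-3 had one of rank 1770 (signal 23.0) at 7656 bp, at rank 647 in replicate 1 and not in replicate 2, 573 bp from the 5′ end of ttr-22.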
